A study of Homo sapiens with 74 samples.

Results

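Peaks that lie at the start of a long non-coding RNA (lncRNA) gene and away from every protein-coding start made up 3119 of the 92122 Cut&Run peaks of 36 zinc finger proteins (ZFPs), or 3.39%. A peak was taken when its nearest edge lay within 1 kb of a transcription start site (TSS) of a GENCODE 44 lncRNA gene and over 5 kb from every protein-coding TSS. Cut&Run maps where a protein sits on chromatin by sequencing the DNA that an antibody-tethered nuclease cuts loose around it. Each ZFP was expressed with a C-terminal V5 tag from an EF1-alpha promoter in HEK293T cells, a human embryonic kidney line, and was profiled with a V5 antibody 48 h after transfection, in 2 biological replicates of 1 well each. Un-transfected HEK293T cells gave the V5 mock IP that served as the control in peak calling. No endogenous ZFP was profiled, and the tagged protein came on top of the endogenous one. The 72 peak lists held 15 to 8702 peaks with a median of 631, and peak lists carry no expression values, so the identity of the cells was not checked. Peaks on the exons of the transfected gene itself, which the plasmid carries, were present in both replicates for 32 ZFPs. They were missing in replicate 1 of MBNL1, in replicate 2 of TRIM55 and in both replicates of ZMAT5 and U2AF1, and replicate 2 of ZC3H3, with 15 peaks in all, had only 1 such peak at a fold of 3.99, against 3029 in replicate 1. The libraries labelled U2AF1 instead had peaks on the exons of USP39, with highest folds of 2716 and 3226. They held 14 of the 3119 peaks at lncRNA starts and no lncRNA gene in both replicates. Without them the number of peaks was 3105. Without all lists of MBNL1, TRIM55, ZMAT5, ZC3H3 and U2AF1 it was 2909, and the number of lncRNA genes found in both replicates was the same with and without them. The study's summary of results gives no Cut&Run target count for CPSF4, MBNL1, SNRPC, TRIM55, ZC3H3 and ZMAT5, all among the 36 ZFPs here. With only the 30 ZFPs with listed target genes there were 2751 peaks and 199 lncRNA genes found in both replicates.

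LncRNAs are transcripts without a long open reading frame, made mostly by RNA polymerase II. Some act in the nucleus as structural parts of nuclear bodies, some regulate neighbouring genes, and others are best known as the host transcripts of microRNAs or small nucleolar RNAs. Many lncRNA starts lie beside a protein-coding start and share its promoter, and others are annotated on pseudogenes, next to short RNA genes of other polymerases, or inside repeated DNA. The 5 kb rule took out the first kind. Of 14189 peaks within 1 kb of a lncRNA TSS, 11070 (78%) were also within 5 kb of a protein-coding TSS.

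The sequences under the strongest and most shared of these peaks fall into a few kinds. Each is shown as 201 bases of hg38 around the summit of 1 peak, on the + strand from 5′ to 3′. The first lies in the 45S ribosomal DNA (rDNA) of chromosome 21 at chr21:8254463-8254663, across the 3′ end of ENSG00000281383, at the CISD1 summit. It is shown because starts in this rDNA were found for more ZFPs than any other. Its capitals mark the letters of GC boxes (GGGCGG or its reverse complement) and of a CCAAT box (CCAAT). Here and below these are matches of letters only, and whether they act as promoter elements was not tested.
45S rDNA, ENSG00000281383: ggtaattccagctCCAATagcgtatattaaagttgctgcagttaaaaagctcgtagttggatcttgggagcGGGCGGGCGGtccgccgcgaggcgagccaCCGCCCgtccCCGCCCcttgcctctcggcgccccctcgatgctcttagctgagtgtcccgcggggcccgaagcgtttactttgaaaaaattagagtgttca
The next pair shows small RNA genes under shared peaks on chromosome arms, with the bases of the small RNA gene in capitals. They are the U1 copy RNU1-27P at chr14:34546688-34546888 upstream of ENSG00000259002 and the leucine tRNA gene TRL-CAG1-5 at chr1:161471016-161471216 upstream of ENSG00000283360.
RNU1-27P: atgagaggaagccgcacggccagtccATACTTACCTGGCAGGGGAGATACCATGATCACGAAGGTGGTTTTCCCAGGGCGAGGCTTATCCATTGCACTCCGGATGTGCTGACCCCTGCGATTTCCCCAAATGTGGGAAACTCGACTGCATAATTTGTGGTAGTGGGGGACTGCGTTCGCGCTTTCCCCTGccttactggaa
TRL-CAG1-5: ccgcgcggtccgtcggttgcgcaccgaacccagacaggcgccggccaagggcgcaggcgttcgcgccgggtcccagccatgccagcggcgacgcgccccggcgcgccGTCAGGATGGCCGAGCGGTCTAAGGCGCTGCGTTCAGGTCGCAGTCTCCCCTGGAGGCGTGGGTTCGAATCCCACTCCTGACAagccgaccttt
A further pair shows the divergent starts of FAM86 pseudogene copies, a duplicated sequence that many ZFPs shared. They are FAM86FP at chr12:8243170-8243370 and FAM86EP at chr4:3955633-3955833, with GC boxes and CCAAT boxes in capitals.
FAM86FP: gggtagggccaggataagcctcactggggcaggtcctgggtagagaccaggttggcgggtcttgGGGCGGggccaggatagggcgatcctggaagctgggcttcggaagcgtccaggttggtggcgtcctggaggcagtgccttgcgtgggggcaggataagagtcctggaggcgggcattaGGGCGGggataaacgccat
FAM86EP: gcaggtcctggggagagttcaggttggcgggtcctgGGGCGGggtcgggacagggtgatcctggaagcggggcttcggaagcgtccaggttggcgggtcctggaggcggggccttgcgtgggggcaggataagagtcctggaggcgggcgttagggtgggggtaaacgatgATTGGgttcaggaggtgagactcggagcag
The last are starts without a small RNA gene. They are ENSG00000289222 at chr16:2905637-2905837, upstream of its start, and the well-known lncRNA MIR17HG at chr13:91347415-91347615. Capitals mark CCAAT boxes and GC boxes on either strand.
ENSG00000289222: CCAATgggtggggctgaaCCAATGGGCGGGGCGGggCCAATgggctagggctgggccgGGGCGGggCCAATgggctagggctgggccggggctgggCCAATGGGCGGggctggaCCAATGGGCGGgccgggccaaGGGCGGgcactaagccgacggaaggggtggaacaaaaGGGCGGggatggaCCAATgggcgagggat
MIR17HG: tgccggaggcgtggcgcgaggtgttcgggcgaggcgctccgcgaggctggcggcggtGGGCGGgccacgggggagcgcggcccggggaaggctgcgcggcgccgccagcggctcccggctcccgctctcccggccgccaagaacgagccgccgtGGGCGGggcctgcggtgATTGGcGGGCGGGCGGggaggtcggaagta

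Of the 3119 peaks, 1229 (39.4%) covered a lncRNA TSS, and the median distance to the nearest protein-coding TSS was 35.2 kb. Near the 1 kb bound, 202 peaks lay in the last 250 bp inside it, and 206 otherwise eligible peaks lay in the first 250 bp beyond it. At the 5 kb bound, 121 peaks lay within 1 kb above it and 114 just failed by lying within 1 kb below it. Most, 2886 (92.5%), were between protein-coding genes. Another 160 (5.13%) lay within a protein-coding gene whose strand was opposite to that of the lncRNA, and 73 (2.34%) within one on the same strand. Taken base by base, 1.24% of the sequenced bases of the assembled chromosomes meet the rule, 36.3 Mb, and 3.39% of peaks met it. These shares are not directly comparable. Peaks were taken by their nearest edge, and their total includes peaks on other contigs.

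Repeats near centromeres were counted apart. Within 5 Mb of the centromeric array of their chromosome lay 704 of the 3119 peaks (22.6%). This distance counts sequenced bases only, so peaks beyond a long run of unsequenced bases (N) can lie farther away in hg38 coordinates. Of the 704, 333 were on chromosome 21, 58 on chromosome 9 and 45 on chromosome 7. Satellite-like windows, those with at least 5 ATTCC or GGAAT pentamers, were almost absent. They numbered 2 of 3119 (0.0641%), against 10.8% of all peaks. The share was 26.1% of the peaks far from every annotated start, which include those on contigs without annotated genes. It was 0.0186% of the peaks at protein-coding starts. Alpha satellite repeats do not enter these shares. The centromere-proximal peaks on chromosome 21 were largely rDNA. All 272 peaks on or within 10 kb of a 45S rDNA unit (8.72% of the total) were on chromosome 21. The annotation used sets this place, because rDNA on contigs without annotated lncRNA genes cannot meet the rule. The other 434 near-centromere or satellite-like peaks (13.9%) were spread over other sequence. On the chromosome arms, 157 peaks (5.03%) covered a small RNA gene and 2256 (72.3%) did not. The parts differed in how often a peak was found again in the other replicate of its ZFP. The share was 86.0% for 45S rDNA and 57.3% for small RNA genes on arms, but 18.7% for the other near-centromere peaks and 19.7% for arm peaks without a small RNA gene. Over all 3119 it was 27.3% (850 peaks). These sequences also differed in how often they recur in the genome. Windows in which most 32-base words recur elsewhere in hg38 made up all of the rDNA peaks, 84.7% of those at small RNA genes, 50.7% of the other near-centromere peaks and 30.3% of the remaining arm peaks. Reads from such windows may not be placed at 1 copy with certainty, and read placement was not examined.

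**Figure D1:**
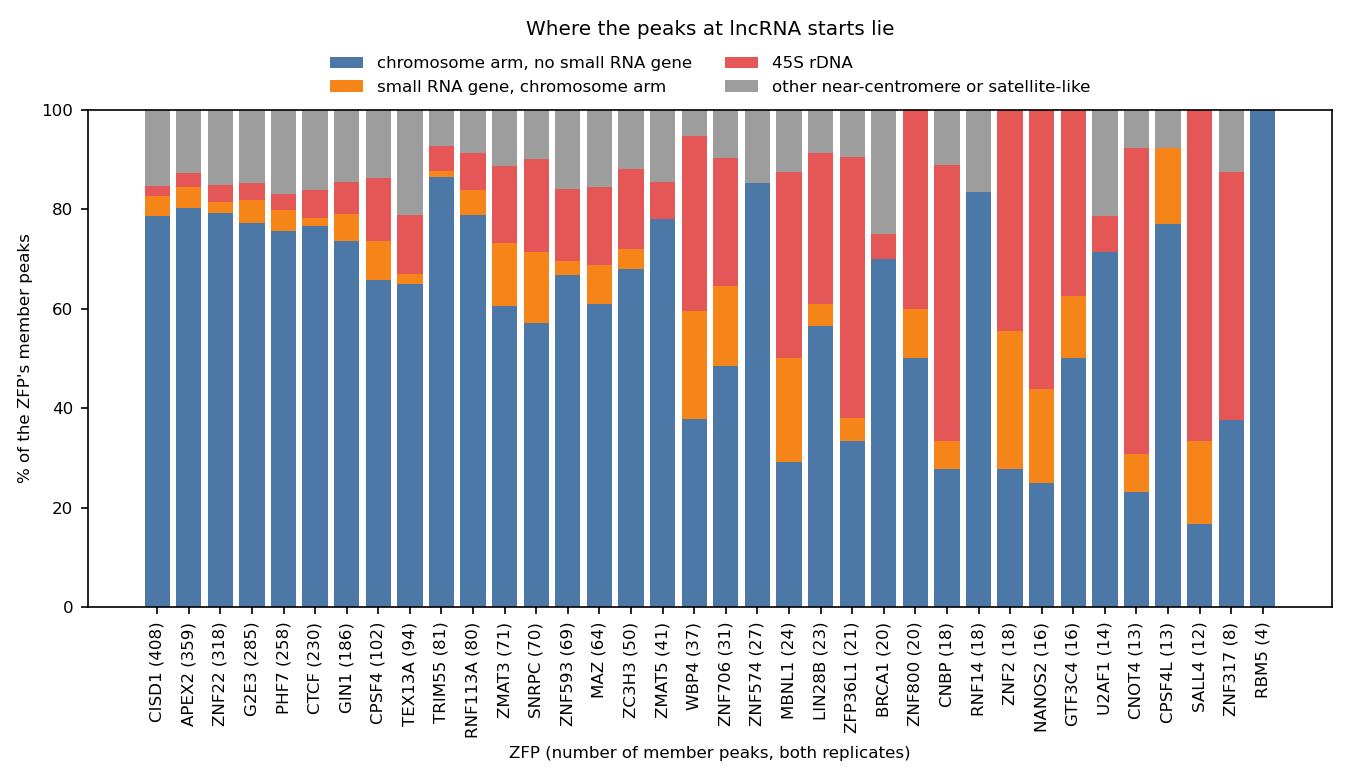
Each bar is 1 ZFP and shows the percent of its peaks at lncRNA starts, both replicates joined, in 45S rDNA, in other near-centromere or satellite-like sequence, at small RNA genes on chromosome arms and elsewhere on the arms, with the number of peaks in parentheses. The ZFPs with the most peaks, led by CISD1 with 408, were mostly made of arm peaks without a small RNA gene, while some with few peaks, such as SALL4 with 8 of 12, were mostly rDNA.

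The share of a list at lncRNA starts was a few percent for most ZFPs. Over the 72 lists it ran from 0.0% to 8.51% with a median of 3.04%, and the mean over ZFPs was 2.87% ± 1.23 (SD, n = 36). The mean was 2.79% ± 1.11 (SD) over the 30 ZFPs with listed Cut&Run target genes, which leave out MBNL1. The pooled SD between replicates of a ZFP was 1.01, so most ZFPs next to each other in the order of shares do not differ beyond the spread of their replicates. CTCF, the insulator protein, had 4.53% of 3198 peaks in replicate 1 and 4.89% of 1740 in replicate 2, with exact 95% intervals of 3.84 to 5.31% and 3.92 to 6.01%. The highest share was in replicate 1 of MBNL1, a splicing regulator, with 12 of 141 peaks (8.51%, 4.48 to 14.4%), a list without a peak on the exons of MBNL1, while its replicate 2 had 12 of 289 (4.15%, 2.16 to 7.14%). In that first MBNL1 list the median fold of these peaks was 26.9 and that of the whole list 15.9. RBM5, another splicing factor, was low in both replicates, at 0.602% and 0.686%, from 1 and 3 peaks. No such peak was found in replicate 1 of TRIM55, where 0 of 114 peaks allow a share of up to 2.63% at a floor of 3 counts (exact 95% upper limit 3.18%), or in replicate 2 of ZC3H3, where 0 of 15 allow up to 20% (upper limit 21.8%). These intervals and limits cover counting error only.

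**Figure D2:**
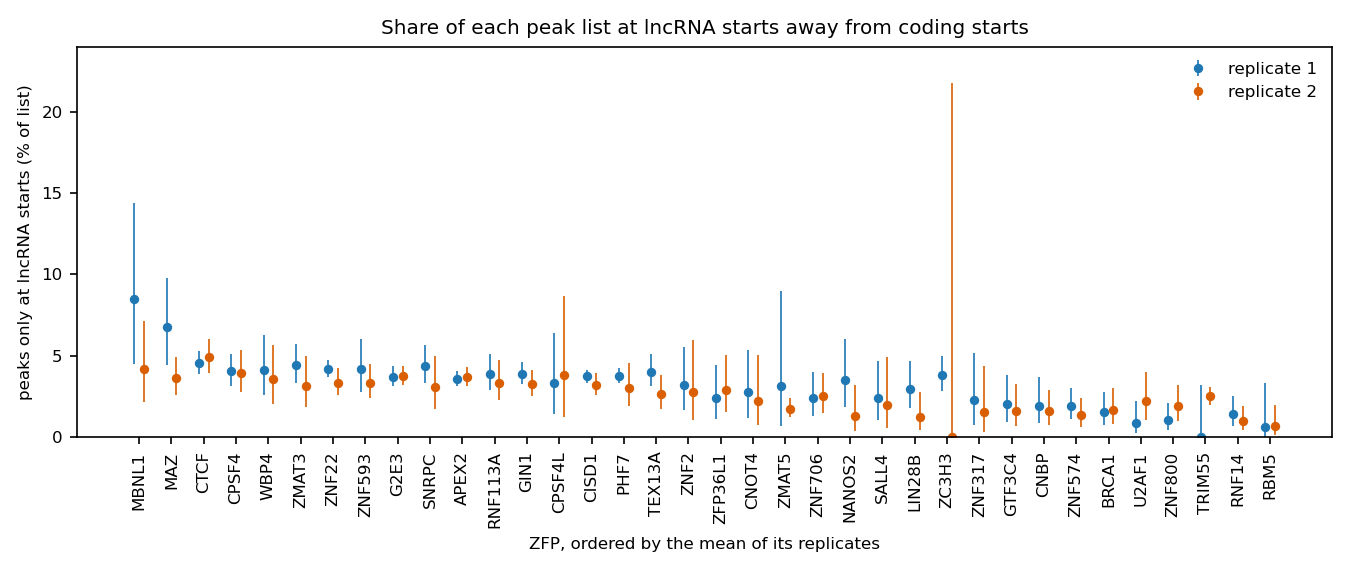
Points give the percent of each peak list at lncRNA starts away from protein-coding starts, with exact 95% binomial intervals as bars, for both replicates of each of the 36 ZFPs, ordered by the mean of the replicates. Shares ran from 0.0 to 8.51%, and the intervals of the 2 replicates overlap for all 36 ZFPs.

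The number of such peaks was concentrated in the ZFPs with long lists. A group of 6 ZFPs, CISD1 with 408 peaks, APEX2 with 359, ZNF22 with 318, G2E3 with 285, PHF7 with 258 and CTCF with 230, held 59.6% of all. CISD1 is an iron-sulfur protein of the outer mitochondrial membrane, APEX2 an endonuclease of base excision repair, G2E3 a ubiquitin ligase and PHF7 a histone reader. Replicates were unequal, with 1999 peaks in the first and 1120 in the second replicates. CISD1 alone had 324 and 84, from lists of 8702 and 2633 peaks. The share of CISD1 differed much less, at 3.72% (3.34 to 4.14%) and 3.19% (2.55 to 3.93%).

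At the level of genes, 13102 lncRNA genes had a TSS over 5 kb from every protein-coding TSS, 1111 of them had a peak in any list, and 200 had a peak in both replicates of at least 1 ZFP. The 200 are 1.53% of the eligible genes. By the same rule of a peak within 1 kb of a TSS in both replicates, without the 5 kb condition, 11.1% of all lncRNA and protein-coding genes were found, and 3347 of 20046 protein-coding genes (16.7%). The share among lncRNA genes away from coding starts is below both of these values. The 200 genes made 518 pairs of gene and ZFP, and in 416 pairs (80.3%) the strongest peaks of both replicates overlapped. Of the 200, 121 (60.5%) were found for 1 ZFP, 26 for 2 and 53 for 3 or more. The 53 are 0.405% of the eligible genes, against 2.59% of all lncRNA and protein-coding genes that were found for 3 or more. For 10 or more ZFPs, 10 genes were found. By place, 35 were near a centromere, 7 had a small RNA gene on an arm, and 158 were arm genes without one.

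Genes without a symbol were the largest group, at 114 of 200 (57.0%, against 69.9% of the eligible genes). Genes named LINC made up 34 (17.0% against 16.5%) and antisense genes 9 (4.5% against 6.38%). Genes named as divergent transcripts were not found in both replicates, against 0.748% of the eligible genes. Names derived from a pseudogene stood at 25 genes (12.5% against 1.89%), and 54 of the 200 genes (27.0%) carry the annotation tag of a pseudogene transcript, against 5.71% of the eligible genes. Hosts of small RNAs were 6 (3.0% against 0.679%). These shares are descriptions of the list and were not tested.

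In what follows, the folds of a gene are given as the lowest, the median and the highest over the lists with a peak at it, each list by its strongest peak there. The most shared starts lay in rDNA. The 45S unit is transcribed by RNA polymerase I and is cut into the 18S, 5.8S and 28S rRNAs. The 4 lncRNA genes annotated on the opposite strand of its copies on chromosome 21 that led the near-centromere genes were ENSG00000281383 with 25 ZFPs, ENSG00000280614 with 24, ENSG00000280800 with 23 and ENSG00000281181 with 22. ENSG00000281383 (chr21:8254592-8255514, − strand) had a peak in 54 lists, with folds over the mock IP of 2.63 at the lowest, 6.61 at the median and 64.5 at the highest. Replicates were close for CISD1 at 31.4 and 31.8 and for CTCF at 3.03 and 3.22, and far apart for MBNL1 at 34.9 and 5.34 and for APEX2 at 22.6 and 6.01. The other 3 had medians of 5.42, 5.35 and 6.54 over 53, 54 and 52 lists. Over all rDNA peaks, 26 ZFPs had one in both replicates and 6 in 1 replicate. CPSF4L, RBM5, RNF14 and ZNF574 had none, and rDNA on contigs without annotated genes was not searched. The 4 genes are copies of 1 sequence, every window in them is made of recurring words, and a peak on 1 copy is not separate evidence from a peak on another.

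Small RNA genes gave the highest folds on the chromosome arms apart from a pair of plasmid-borne exon peaks of RNF14, described last. U1 snRNA recognises the 5′ splice site, and its genes are short and present in several copies. The 4 U1 genes beside lncRNA starts had 75 peaks in 35 lists of 22 ZFPs, with folds of 4.55, 22.5 and 68.8 at the lowest, the median and the highest. The start of ENSG00000259002 (chr14:34541740-34546329, − strand), upstream of which RNU1-27P lies at chr14:34546714-34546877, was found for 12 ZFPs in both replicates and in 29 lists, with folds of 9.35, 29.2 and 68.8. WBP4, a protein of the spliceosome, had 47.2 and 58.8 there, and ZMAT3 44 and 68.8. CISD1 had 46.6 and 44.4, and SNRPC, the C protein of the U1 particle itself, 18.2 and 19.2. GIN1 had 66.9 and 17.7, so its replicates differed more than most of the ZFPs did from each other. This start was also the strongest arm gene of CISD1, CPSF4 (27.2 and 53.4), MAZ (58.5 and 26.7) and PHF7 (26.9 and 36.6). Its neighbour ENSG00000259135 with RNU1-28P was found for 7 ZFPs and 24 lists (5.99, 21.9 and 49.5) and led the arm genes of G2E3, at 22.3 and 21.5. ENSG00000261135 on chromosome 1, beside RNU1-1, was found for 5 ZFPs and 20 lists (5.84, 20 and 44.8) and led those of GIN1 (44.8 and 22.5) and SNRPC (19.9 and 20.2).

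The 7SL gene RN7SL2 makes the RNA of the signal recognition particle by RNA polymerase III. It lies within ENSG00000282885 (chr14:49861176-49868192, − strand) and just upstream of ENSG00000278002 (+ strand), which share its peak. ENSG00000282885 was found for 11 ZFPs and in 36 lists, with folds of 4.07, 11.4 and 50.5, and ENSG00000278002 for 10 ZFPs. CISD1 had the highest lower replicate, 49.8 and 30.7. Single replicates of MAZ (50.5) and APEX2 (21.5) had a peak on RN7SL2 with none in the other replicate, so 34 lists of 24 ZFPs gave only 10 ZFPs in both.

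At tRNA genes, also transcribed by RNA polymerase III, folds were lower. A total of 12 tRNA genes had 41 peaks in 20 lists of 13 ZFPs, with folds of 3.2, 5.33 and 7.96. The most shared of their lncRNA starts, ENSG00000283360 (chr1:161403409-161470523, − strand), lies in a tRNA cluster of chromosome 1 and was found for 11 ZFPs and 28 lists (3.08, 5.16 and 7.96). CISD1 had 7.81 and 6.97 there. GTF3C4, a subunit of the polymerase III factor TFIIIC, had 9 and 7 peaks at lncRNA starts, from lists of 446 and 439 peaks. Of these, 1 in each replicate lay on a U1 gene, at 17.9 and 14.0, and none on a tRNA gene, while the rest of its lists was not examined for tRNA genes.

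The most shared arm start without a small RNA gene was that of a FAM86 pseudogene. ENSG00000286895 (chr12:8243147-8342048, + strand) and ENSG00000290940 (chr12:8234342-8242948, − strand) start back to back at FAM86FP and share 1 peak, which was found for 12 ZFPs and in 28 lists with folds of 3.96, 6.19 and 13.8. APEX2 had the highest fold in the weaker of the replicates, at 10.7 and 10.3, and this was its leading arm gene. FAM86 genes encode putative methyltransferases, and the family has many pseudogene copies. Only peaks that met the rule for lncRNA starts were counted at the copies, and copies on chromosome 8 were left out. Of 11 copies examined, 8 had such peaks, in all 8 cases in both replicates of at least 1 ZFP. These 8 held 140 peaks, and 13 ZFPs had 1 or more of them in both replicates. FAM86KP on chromosome 4 followed FAM86FP with 7 ZFPs and 17 lists (4.68, 6.23 and 9.53 over its peaks), then FAM86JP with 6 ZFPs and 16 lists (3.72, 5.5 and 7.82 over its peaks). FAM86HP and FAM86C1P had 5 ZFPs each, FAM86C2P 4, and FAM86DP and FAM86EP 3 each. FAM86MP, FAM86LP and FAM86GP had no peak that met the rule, and other peaks there were not counted. The 201 bases of the FAM86FP window were aligned to the neighbourhood of the strongest peak of each other copy. In the best match 87.1 to 95.5% of them were identical, with FAM86KP the closest at 95.5% and FAM86C1P the farthest at 87.1%. The best match need not lie under the peak itself. At the median over the peaks of FAM86FP 81.8% of the 32-base words recur elsewhere, against 28.8% over those of FAM86EP, where APEX2, CISD1 and ZNF22 had peaks in both replicates. The protein-coding parent FAM86A, searched over all peaks and not only those at lncRNA starts, had no peak within 1 kb of its start in any list.

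LINC02564 (chr18:11103-16352, + strand) starts at the end of chromosome 18, and many of its peaks sat on telomere units. It was found for 8 ZFPs, namely APEX2, CISD1, GIN1, RNF113A, RNF14, ZMAT3, ZNF22 and ZNF593, and in 31 lists, with folds of 3.98, 6.29 and 14.3. GIN1 had 8.52 and 11.6, and for RNF113A, where it was the leading arm gene, folds were 5.62 and 8.78. Windows with at least 5 telomere units numbered 31 of the 3119 (0.994%), 29 of them here, against 422 of all 92122 peaks (0.458%). ROCK1P1, a pseudogene transcript near the same chromosome end, was found for 9 ZFPs at low folds of 1.8, 2.65 and 3.52 over 19 lists, in a window in which every 32-base word recurs elsewhere. Its ZFPs, CPSF4L, MAZ, RBM5, RNF113A, RNF14, ZNF574, ZNF593, ZNF706 and ZNF800, shared RNF113A, RNF14 and ZNF593 with LINC02564.

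MALAT1 (chr11:65497640-65508073, + strand), an abundant nuclear lncRNA of speckles, was found for 6 ZFPs and in 20 lists, with folds of 4.61, 8.05 and 23. WBP4 had 23 and 8.36, CISD1 12.7 and 14.8, and ZMAT3 10.7 and 9.11. CNBP, a nucleic acid binding protein, had 6.11 and 16.4 at different summits, CPSF4, a subunit of the polyadenylation complex, 6.09 and 5.69, and PHF7 7.75 and 4.61. The MALAT1 peaks spread over the gene rather than its 5′ end. GENCODE 44 gives the gene 66 transcripts with 40 starts, and the 36 peaks in 21 lists over the gene had summits 5 to 9969 bp from its first base, at a median of 3180 bp. The neighbouring paraspeckle lncRNA NEAT1 had peaks in 8 lists, none in both replicates of a ZFP, with folds of 2.0 to 7.43 over all its peaks. Over all peaks of MALAT1 the lowest fold was 2.0, in replicate 2 of TRIM55, and the median 6.1.

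ENSG00000289222 (chr16:2903540-2905402, − strand) was found for APEX2, CISD1, CTCF, GIN1, MAZ and ZNF22 and in 19 lists, with folds of 5.15, 7.96 and 15.8. It was the leading arm gene of CTCF, at 13.2 and 10.1, and its window holds 7 CCAAT boxes besides GC boxes. ENSG00000288075 (chr4:9034519-9381269, − strand) was found for 7 ZFPs (4.68, 6.46 and 9.53 over 18 lists). Its shared peak lies inside the gene, at a transcript start beside FAM86KP and not at the 5′ end of the gene. The leading arm genes of ZNF22 and ZNF593 were ENSG00000290689 and ENSG00000291210, both on chromosome 15 and both in recurring sequence. ZNF22 had 7.22 and 6.85 at the first, and ZNF593 had 8.82 and 10.9 at the second.

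**Figure D3:**
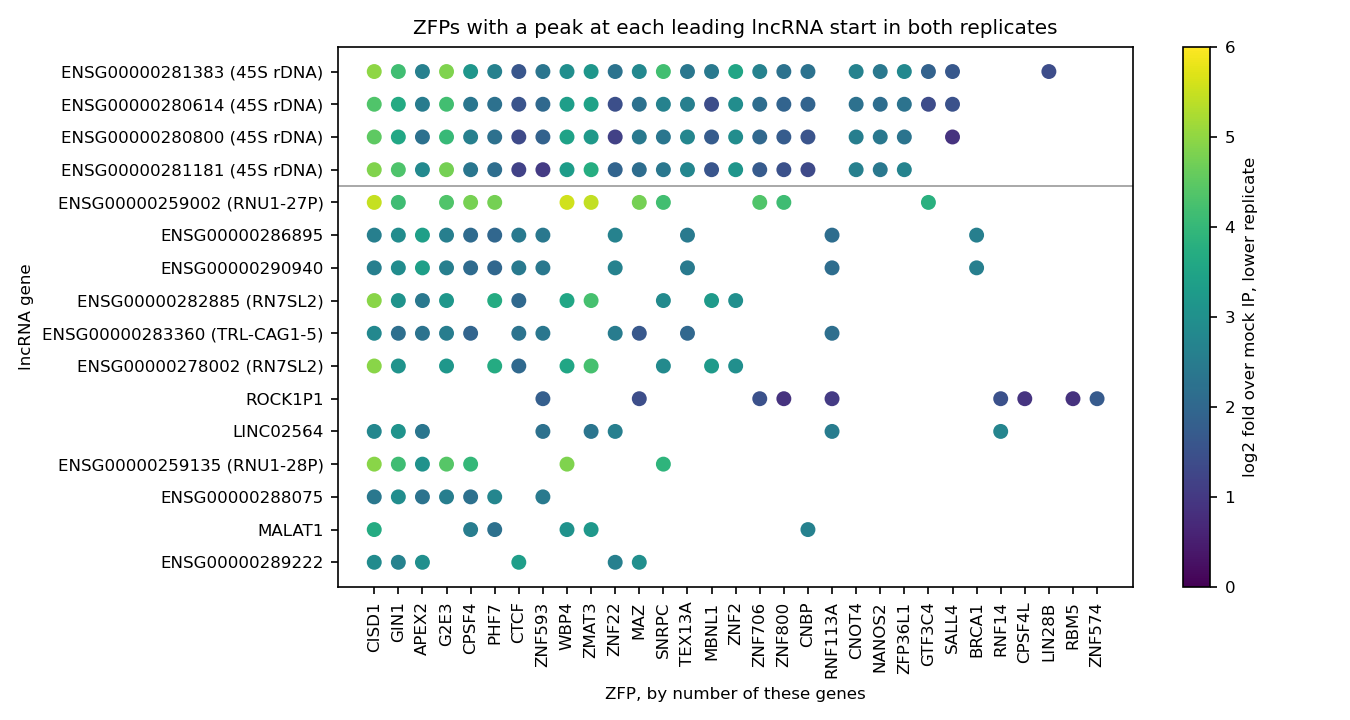
Each row is a leading lncRNA gene, the near-centromere rDNA genes first, each column a ZFP, and a filled cell marks a peak in both replicates of that ZFP. The rDNA rows reach 22 to 25 ZFPs, the RNU1-27P, FAM86FP and 7SL starts 10 to 12, the RNU1-28P start 7, and MALAT1 and ENSG00000289222 reach 6 each.

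Genes in both replicates were spread unevenly over ZFPs. Of the 36, 31 had at least 1 and 5 had none. APEX2 had 85, G2E3 63, ZNF22 53, CTCF 50, CISD1 49 and GIN1 44. Of all lncRNA and protein-coding genes, the same rule found 5.51% for APEX2, 3.4% for G2E3, 3.18% for ZNF22, 2.26% for CTCF, 3.16% for CISD1 and 1.63% for GIN1, so the order of these ZFPs at lncRNA starts was close to that over all genes. They differed in how many genes they shared. Lists of different ZFPs were called against shared mock IP controls, and the part of the control in shared peaks was not tested. CTCF had 29 of its 50 genes (58.0%) with no other ZFP in both replicates, APEX2 27 of 85, G2E3 20 of 63 and ZNF22 16 of 53. For CISD1 it was 15 of 49 and for GIN1, a protein related to retrotransposon integrases, 6 of 44 (13.6%). Single lists of other ZFPs could still have a peak at these genes. PHF7 and MAZ shared all of their 16 and 15 genes. The largest overlaps were between APEX2 and GIN1, 31 genes that are 36.5% of those of APEX2 and 70.5% of those of GIN1, and between APEX2 and G2E3, also 31 genes (36.5% and 49.2%). APEX2 and ZNF22 shared 30 (35.3% and 56.6%), and CISD1 and GIN1 24 (49.0% and 54.5%). Over positions, the peaks merged into 1192 regions, of which 774 (64.9%) were called in 1 list and 160 in both replicates of a ZFP.

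The CTCF recognition word was present in few of the CTCF peaks at lncRNA starts, and in a larger share than in those of the other ZFPs, a difference that was not tested. Of the CTCF peaks on arms, 9 of 115 (7.83%) in replicate 1 and 7 of 61 (11.5%) in replicate 2 held the CTCF core word (CCA, AG and GGC with 2 undefined bases between each) on either strand, against 32 of 2080 (1.54%) for the other ZFPs and 556 of 34193 (1.63%) windows around eligible lncRNA starts. CTCF peaks at protein-coding starts held it in 4.78%, and its distal peaks without satellite in 11.1%. Of the 29 genes found in both replicates for CTCF and no other ZFP, 22 were on arms. The word lay around the summit of replicate 1 in 2 of these. DDX11L16, a pseudogene transcript at the end of the short arm of chromosome 16, had folds of 5.91 and 12.9. ENSG00000230107 on chromosome 22 had 6.33 and 6.32. Counting single replicates of any ZFP, DDX11L16 had a peak in 2 lists and ENSG00000230107 in 3. The windows of these 2 genes, chr16:10963-11163 and chr22:42437611-42437811, are shown with the word in capitals. In each the word lies by a lncRNA start that only CTCF had in both replicates.
DDX11L16: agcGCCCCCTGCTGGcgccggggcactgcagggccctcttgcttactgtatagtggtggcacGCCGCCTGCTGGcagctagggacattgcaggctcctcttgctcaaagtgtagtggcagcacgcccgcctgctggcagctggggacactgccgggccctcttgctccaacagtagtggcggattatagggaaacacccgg
ENSG00000230107: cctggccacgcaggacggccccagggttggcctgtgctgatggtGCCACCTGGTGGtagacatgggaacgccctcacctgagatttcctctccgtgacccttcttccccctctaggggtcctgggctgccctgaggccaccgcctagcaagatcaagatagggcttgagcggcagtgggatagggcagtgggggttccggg
Other genes that only CTCF had in both replicates included LINC02168 (10.7 and 7.82), GBAP1 (7.95 and 6.09) and SLC25A25-AS1 (6.97 and 6.32), none with the word. LINC02168 counts as near a centromere only by the distance in sequenced bases. These named genes were chosen after their values were seen. They had a peak in 2, 4 and 2 lists, and over the 29 genes the number of lists ran from 2 to 9. For MAZ, whose GC-rich word is GGGAGGG, 1 of 14 (7.14%) and 4 of 25 (16.0%) arm peaks held it, against 18% for the other ZFPs and 28.6% of the MAZ peaks at protein-coding starts.

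Of 87 well-known lncRNAs on a list, 81 were annotated under that name, 66 had an eligible TSS, 25 had a peak in any list and 7 had one in both replicates of a ZFP (10.6% of the eligible, against 1.53% of all eligible lncRNA genes and 11.1% of all lncRNA and protein-coding genes, a difference that was not tested). Beside MALAT1 these were hosts of small RNAs and genes of the 13q14 region. MIR17HG, host of an oncogenic microRNA cluster, was found for APEX2 at 4.93 and 6.64, for PHF7 at 5.64 and 4.5 and for ZNF22 at 5.09 and 4.77, and in 10 lists. DLEU2, host of a tumour-suppressing microRNA pair, was found for APEX2 at 5.49 and 4.87 and for CISD1 at 7.54 and 5.44, and in 15 lists. DLEU1 was found in both replicates for CISD1 alone, at 7.54 and 5.3, and in 8 lists. It shares its start region with DLEU2. SNHG12 was found for APEX2 at 6.36 and 6.47, DANCR for G2E3 at 5.18 and 5.7, and MIR9-1HG for APEX2 at 4.2 and 4.0. Both replicates of these pairs were close, and all their folds lay from 4.0 to 7.54.

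The peaks at lncRNA starts were set against peaks within 1 kb of protein-coding starts (43019, 46.7% of all) and distal peaks (38088, 41.3%). Distal peaks lay over 1 kb from every annotated lncRNA start and over 5 kb from every protein-coding start. Peaks lay on 92 contigs and the annotation covers 25, so peaks on contigs without annotated genes count as distal. Their part in the values below was not examined. Each comparison was made within 28 ZFPs that had enough peaks of each class. It used a two-sided sign-flip permutation test over ZFPs, with 10 tests adjusted together. GC content of the 201-base window was lower than at protein-coding starts, 61.6% ± 4.14 against 64.4% ± 4.45 (SD over ZFPs), in 25 of 28 ZFPs (difference −2.76, SD 2.48, permutation test adjusted p = 0.000125). It was higher than in distal peaks, at 52.5% ± 5.22, in 28 of 28 (difference 9.16, SD 3.2, permutation test adjusted p = 3.33e-05). The median fold on the log2 scale was 2.46 ± 0.341, against 2.38 ± 0.169 at protein-coding starts (difference 0.08, SD 0.431, permutation test adjusted p = 0.394) and 2.05 ± 0.307 in distal peaks (difference 0.412, SD 0.28, higher in 28 of 28, permutation test adjusted p = 3.33e-05). The satellite-like share was 0.0143% against 32.5% in distal peaks (permutation test adjusted p = 3.33e-05, lower in 28 of 28), and against 0.153% at protein-coding starts the difference did not pass (permutation test adjusted p = 0.394). The raw p of 1e-05 behind the smallest values is the smallest that 100000 resamples can give.

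The share of peaks found in the other replicate was 41.2% ± 17.1 at lncRNA starts and 27.7% ± 14.8 at protein-coding starts, higher in 20 of 28 ZFPs (difference 13.6, SD 19, permutation test adjusted p = 0.0017). This difference did not hold under several settings, most of which also left fewer ZFPs with enough peaks. Without rDNA and small RNA peaks it was 0.757 in 20 ZFPs (permutation test adjusted p = 0.729), without peaks near centromeres 6.05 in 20 (permutation test adjusted p = 0.0826), and without windows made mostly of recurring words it turned to −9.47 in 14 (permutation test adjusted p = 0.0074). At an overlap of 50% of both peaks it was 5.73 in the same 28 (permutation test adjusted p = 0.106). Against distal peaks, at 44.9% ± 13.8, the difference was −3.64 (SD 16.2, permutation test adjusted p = 0.36). Peaks were wider than at protein-coding starts, with a mean of the medians of 264 bp against 232 bp (difference 32.1, SD 78.2, permutation test adjusted p = 0.0495). That call was kept under 9 of 17 alternatives, and the difference turned to −9.68 without recurring windows. Width against distal peaks differed by 1.47 bp (SD 62.2, permutation test adjusted p = 0.903).

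**Figure D4:**
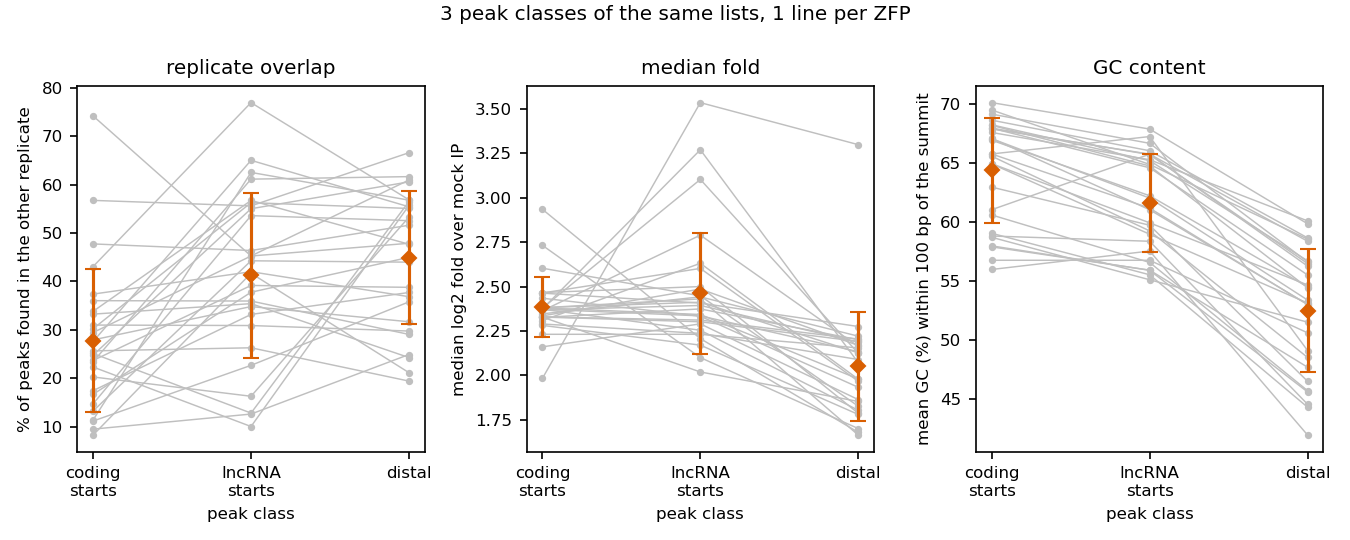
Each line is 1 ZFP and joins its values for peaks at protein-coding starts, peaks only at lncRNA starts and distal peaks, with the measure and its unit on the vertical axis of each panel. GC content falls from 64.4 over 61.6 to 52.5% on average. In the same order, the median log2 fold is 2.38, 2.46 and 2.05, and the share of peaks found in the other replicate is 27.7, 41.2 and 44.9%.

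On sequence, arm peaks without a small RNA gene were GC-rich and rich in CpG. Their 2256 windows had a mean GC content of 65.2% and 14.6 CpG per window, against 50% and 5.46 in the 34193 windows around eligible lncRNA starts. A GC box was present in 45.7% of them, against 14.0% of the start windows and 57.3% of the peaks at protein-coding starts. The TATA core TATAAA was present in 1.29% against 10.1%, the CCAAT box in 17.5% against 26%, and the palindromic E box CACGTG in 5.94% against 3.59%. All words were searched on both strands, and overlapping words were counted each. Windows at small RNA genes on arms held a GC box in 10.2%. Those in rDNA held the satellite pentamer ATTCC in 54.4% and TGACTCA in 22.8%.

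Summits lay close to the annotated starts. On the arms the median distance was 228 bp, and 53.0% of summits were within 250 bp, with 53.4% on the upstream side. The share within 250 bp was 54.8% without a small RNA gene, 59.4% for the other near-centromere peaks, 36.8% in rDNA and 28% at small RNA genes (median distances of 216, 190.5, 510 and 448 bp). The rule itself used the distance of the peak, so these values are a description.

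**Figure D5:**
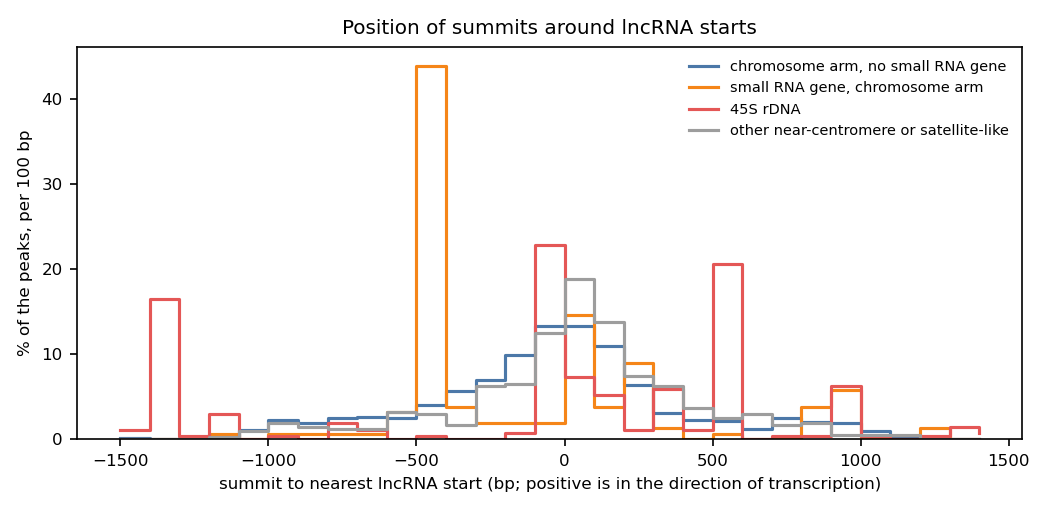
Lines give the percent of peaks per 100 bp of distance from the summit to the nearest lncRNA start, with positive values in the direction of transcription, for the 4 kinds of place. Arm peaks without a small RNA gene cluster at the start, with 54.8% within 250 bp, while only 28% of those at small RNA genes do.

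Folds over all 3119 peaks had a median of 5.03 and a lowest value of 1.32. The median was 4.97 for arm peaks without a small RNA gene, 4.98 for other near-centromere peaks, 5.41 for rDNA and 11.1 for small RNA genes. The highest folds, 680 and 653, belonged to 1 peak in each RNF14 replicate (chr5:141983378-141983595 and chr5:141983375-141983596) on an exon of RNF14, the transfected gene, which the plasmid carries and the un-transfected control lacks. It counted here because the lncRNA ENSG00000254099 starts nearby. Apart from this pair the highest fold was 69.6, and of 62 peaks over 25-fold, 37 were at U1 genes, 22 in rDNA and 3 at 7SL. The highest fold of an arm peak without a small RNA gene was then 23, at MALAT1 for WBP4. In replicate 2 of TRIM55, with 3244 peaks, the median fold at lncRNA starts was 2.0, and none of its 81 peaks was found in replicate 1.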

How the data were processed

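Peak lists of 36 V5-tagged ZFPs in HEK293T cells, 2 replicates each, were used. The 2 V5 mock IP samples have no peak list here. Per the submitters' processing notes and the study's methods, the authors trimmed reads with Trimmomatic 0.36, aligned them to hg38 with Bowtie2 2.3.5.1 (fragments of 10 to 700 bp), took out PCR duplicates with Picard and ran MACS2 2.2.7.1 in narrow mode, library by library, with the mock IP as control and an FDR of 0.05. The deposited fold is a ratio of signal over mock IP at the summit. The −log10 p and −log10 q values and the score, which the peak caller derives from q, are also the authors' deposited values. Folds are relative to un-transfected cells, so plasmid reads are not balanced. The sources used here give no read totals or batches, and list length is the only measure of depth.

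Positions were compared with GENCODE 44 and the hg38 sequence. Small RNA genes came from GENCODE 44 and, for tRNA and FAM86 copies, from RefSeq GRCh38.p14. Where a peak had several lncRNA starts, each gene was counted. Satellite-like windows held at least 5 ATTCC or GGAAT pentamers. Centromeric arrays were runs of 10 kb windows with a 171 bp period and over 0.45 matching bases, and distances to them left out runs of N. Recurring words were exact 32-base words found elsewhere in hg38. Some sequences are not reported here. Shares per list and all tests used each replicate apart, and totals and the shares of peaks by place join both. A gene in both replicates needed a peak in each. Exact 95% intervals and a floor of 3 counts cover counting error only. Class comparisons used ZFPs with at least 5 peaks of each class in each list, the mean of both replicates, 100000 sign flips and Benjamini-Hochberg adjustment over 10 tests. The test was checked on simulated data. Genes were named by rule: the 12 arm genes and the 4 near-centromere genes found for the most ZFPs, the arm gene with the highest lower-replicate fold for each of the 12 ZFPs with the most genes, and all genes of a list of well-known lncRNAs. The peaks and lists were chosen with earlier results of these data known. Alternatives covered both distances, the summit, gene ends, a stricter q, satellite and near-centromere peaks, replicate overlap, class size and each replicate left out. They also covered only the 30 ZFPs with listed Cut&Run target genes. Tools were pysam 0.24.0, numba 0.67.0, bedtools 2.31.1, numpy 2.4.6, pandas 2.3.3, scipy 1.17.1 and matplotlib 3.10.9 under Python 3.11.15.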

Additional observations from a re-analysis of the deposited data

How the results depend on the processing

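Of 242 recomputed values, 204 were counted as unchanged. For the class tests this meant the same direction and the same side of the threshold. The numbers of peaks and genes, the mean share and the satellite-like share of the peaks at lncRNA starts were not tested. They were judged only by the size of their change from the main setting. GC content against both classes (−3.58 to −2.05 and 4.45 to 11), the satellite-like share against distal peaks (−39.4 to −7.34) and fold against distal peaks (0.175 to 0.642) kept their calls under every alternative run. Leaving out peaks at small RNA genes and 45S rDNA, windows made mostly of recurring 32-base words, or the 5 ZFPs with a list that lacks its own exon peaks, was chosen after seeing the data. The cause of the changes below was not tested.

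With a lncRNA start within 500 bp, width against protein-coding starts was 47.6 bp (adjusted p = 0.0868 by permutation) and replicate overlap against distal peaks 0.727. With 2 kb these were 20.3 and −7.55 (permutation adjusted p = 0.02), and width against distal peaks was −12.9. At a q of 1e-05 there were 874 peaks, 41 genes in both replicates, 17 of them for 3 or more ZFPs, no satellite-like peak (0.0%), a width difference of 99.3 and a fold difference against protein-coding starts of −0.191. With gene 5′ ends the satellite-like share was 0.0%. With satellite-like peaks left out of all lists the mean share was 3.92%, and overlap and width against distal peaks were 5.66 and 35.9 (permutation adjusted p = 0.0457 and 0.00139). Without near-centromere peaks overlap and width against protein-coding starts were 6.05 and 7.89. With 20 peaks per class the satellite-like share against protein-coding starts was 0.0157, width 7.44, and overlap against distal peaks 0.933. Where replicate peaks had to overlap by 50%, there were 124 genes, 20 of them for 3 or more ZFPs, and the overlap difference was 5.73. Without small RNA and rDNA peaks, overlap was 0.757 and −12.8 (permutation adjusted p = 0.00592 for the latter), width 13.7 and −3.3, and fold −0.018, against protein-coding and distal peaks respectively, fold against protein-coding ones. Without recurring windows there were 1810 peaks, 129 genes and 17 for 3 or more ZFPs, with overlap at −9.47 and width at −9.68 against protein-coding starts. Leaving out a replicate gave 1120 to 1999 peaks, a satellite-like share of 0.0 to 0.1%, width against protein-coding starts of 17.2 to 46.6 and against distal peaks of −6.38 to 4.61. No paired analysis was possible because no test compared ZFPs by replicate number. The class tests themselves pair the classes within each ZFP. Several settings also changed which ZFPs had enough peaks.

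The length of the lists limits what can be seen. Of 72 lists, 13 held 5 or fewer peaks at lncRNA starts, and a gene missing from a short list may lie below its detection. Recurring windows can leave the copy under a peak uncertain.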
